A study of Triticum aestivum with 6 samples.

Results

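The 6 transcripts described here were already abundant in non-mycorrhizal wheat roots and were 2 to 8 times higher in every library from mycorrhizal roots. They were chosen from the measured levels themselves. A transcript was taken if its ID began with Traes_ or TRAES3BF, if its lowest value in the non-mycorrhizal libraries was at least 50 FPKM, and if its lowest value in the mycorrhizal libraries was at least 2 times and under 8 times the highest non-mycorrhizal value. FPKM is the number of sequenced fragments scaled to transcript length and to the size of the library, so it is a level per length within a library. The rule found 6 of the 114264 IDs in the table, and no ID had to be removed because another carried identical values. Since the rule used the difference between the groups, that difference is given as a description of the members and is not tested.

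The plants were bread wheat (Triticum aestivum, cultivar Chinese spring), grown in pots of steam-sterilized soil and quartz sand. The mycorrhizal group (AM) comprised 3 root libraries from plants inoculated with an arbuscular mycorrhizal fungus, named Rhizophagus irregularis in the series title, and the sample titles add that a molecular signal was given without saying which. The non-mycorrhizal group (NM) comprised 3 root libraries from plants with no such signal. The replicates are called biological in the design text, but the sources used here do not give plant age, the number of plants per library or the degree of colonization. All 6 libraries were run in 1 lane, and each summed to between 1136829 and 1193206 FPKM.

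Arbuscular mycorrhizal fungi grow between and inside the cortical cells of roots, where they form branched arbuscules and exchange soil minerals, above all phosphate, for plant sugars and lipids. Colonized cells switch on transporters and enzymes that are almost silent elsewhere in the root, while transcripts that the whole root already uses can also shift. Bread wheat is a hexaploid with A, B and D subgenomes, so most genes have related copies on the matching arms of all subgenomes, and reads of such copies can be split between their IDs. What the 6 transcripts encode is not stated here, because 0 of the 114264 IDs matched an identifier among 155467 RefSeq genes (assembly IWGSC CS RefSeq v2.1). For the same reason no sequence is shown, and neither root cell types nor the fungus could be checked by marker genes. In whole roots, more RNA of a transcript per cell and more cells that hold it cannot be told apart.

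The 6 transcripts came from 5 chromosomes, as stated in their IDs. One each lay on arms 5BL, 7BL, 4AS and 1DS, and a pair lay on chromosome 3B, whose TRAES3BF IDs are built from a scaffold and a gene number. By mean level in AM roots they ranged from 220 to 548 FPKM, with a median of 301 FPKM. In NM roots their means ranged from 64.2 to 166 FPKM, with a median of 94.2 FPKM. The AM mean was 2.63 to 4.21 times the NM mean, with a median of 3.28 times. None came close to the upper bound of the rule, since the lowest AM value was at most 2.74 times the highest NM value.

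The transcript with the widest relative separation was Traes_5BL_82626DD6E, on the long arm of chromosome 5B. It stood at 239.54, 262.77 and 309.52 FPKM in AM replicates 1, 2 and 3, against 50.4, 54.93 and 87.37 FPKM in NM replicates 1, 2 and 3. All AM values were far above all NM values, and NM replicate 3 was clearly the highest of its group. The mean was 271 ± 35.6 FPKM in AM and 64.2 ± 20.2 FPKM in NM (SD, n = 3 each), a ratio of 4.21. On the log2(FPKM + 1) scale the difference was 2.09 with a standard error of 0.23. This and all later standard errors come from the limma fit described below. That fit draws the spread of each ID towards that of IDs at a like level, so they are not each transcript's own error. It was also the least abundant of the 6 in NM roots and the member closest to the floor of 50 FPKM.

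The chromosome 3B transcripts were the most even. TRAES3BF007400110CFD_g stood at 212.83, 223.42 and 225.13 FPKM in AM, against 87.5, 80.0 and 84.16 FPKM in NM. Its AM libraries lay within 1.06 times of each other and its NM libraries within 1.09 times, the tightest groups among the 6, and the groups did not overlap. Its means, 220 ± 6.66 FPKM in AM and 83.9 ± 3.76 FPKM in NM (SD, n = 3 each), gave the smallest ratio of the 6, 2.63, with a log2 difference of 1.38 (standard error 0.11). TRAES3BF049300050CFD_g stood at 288.98, 306.96 and 278.68 FPKM in AM, against 77.67, 95.55 and 104.82 FPKM in NM. It was the only member whose highest AM value was not in replicate 3, and its groups were again well apart. Its mean was 292 ± 14.3 FPKM in AM and 92.7 ± 13.8 FPKM in NM (SD, n = 3 each), a ratio of 3.15 and a log2 difference of 1.65 (standard error 0.15).

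The most abundant member in both groups was Traes_4AS_5574058B4, on the short arm of chromosome 4A. It stood at 486.4, 496.84 and 661.32 FPKM in AM, against 153.01, 132.09 and 212.11 FPKM in NM. Replicate 3 was the highest library in both groups, and the lowest AM value was 274 FPKM above the highest NM value, the widest gap in FPKM among the 6. Its mean was 548 ± 98.1 FPKM in AM and 166 ± 41.5 FPKM in NM (SD, n = 3 each), a ratio of 3.31. By mean level it ranked 103 of all IDs in AM roots and 1035 in NM roots. The other 5 ranked from 149 to 570 in AM and from 1403 to 3237 in NM.

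The remaining pair was less even. Traes_1DS_6F82D5B34, on the short arm of chromosome 1D, stood at 441.83, 328.63 and 567.33 FPKM in AM, against 153.71, 137.78 and 104.37 FPKM in NM. Its AM values spread 1.73-fold, the most of the 6, and AM replicate 2 was the low library, yet the groups stayed apart. The means were 446 ± 119 FPKM in AM and 132 ± 25.2 FPKM in NM (SD, n = 3 each), a ratio of 3.38. Traes_7BL_AB7E64312, on the long arm of chromosome 7B, stood at 278.18, 304.08 and 350.66 FPKM in AM, against 88.37, 130.24 and 68.77 FPKM in NM. Its NM values spread 1.89-fold, the most of the 6, with NM replicate 2 highest. The means were 311 ± 36.7 FPKM in AM and 95.8 ± 31.4 FPKM in NM (SD, n = 3 each), a ratio of 3.25.

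**Figure D1:**
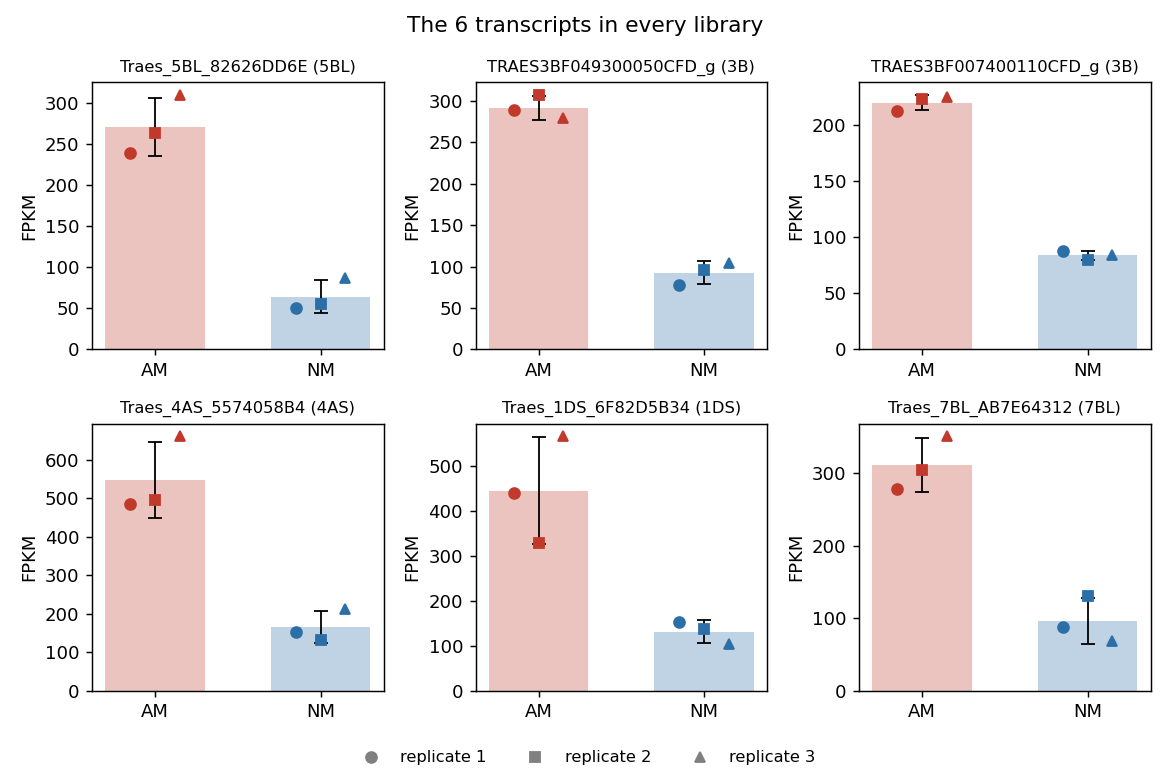
FPKM of each of the 6 transcripts in AM and NM roots. Bars are group means, error bars are SD (n = 3), and symbols are single libraries by replicate. The lowest AM value lies between 2.14 and 2.74 times above the highest NM value in each panel.

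Together the 6 transcripts summed to 2088 ± 264 FPKM in AM and 634 ± 25.7 FPKM in NM (SD, n = 3 each). As a share of all FPKM in a library this was 0.166%, 0.164% and 0.210% in AM replicates 1, 2 and 3, against 0.0521%, 0.0528% and 0.0570% in NM replicates 1, 2 and 3. The share was 3.34 times larger in AM, with AM replicate 3 highest and the NM libraries close together. AM replicate 3 was the highest AM library for 5 of the 6 members. Here, abundant IDs are those with a lowest NM value of at least 50 FPKM. Among the other 3348 abundant IDs, AM replicate 3 was the highest AM library for 20.2% and the lowest for 52.9%. Most of these IDs were not raised in AM: in 1695 the groups overlapped, and in 1189 all AM values lay below all NM values. They are therefore not matched to the members in direction, and the difference was not tested.

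The spread of the members within a group was set beside that of other abundant transcripts. The highest AM value was a median of 1.28 times the lowest over the 6 members. It was 1.34 times over 3335 of the 3348 other abundant IDs (quartiles 1.18 and 1.70). The 13 IDs whose lowest AM value was listed at 0 have no such ratio and were left out. Among NM libraries the median was 1.54 times for the members and 1.23 times for the other abundant IDs (quartiles 1.14 and 1.40). Of the 6, TRAES3BF007400110CFD_g alone fell under that lower quartile. These spreads were not tested, because the members were chosen on the same values. The rule bounds the highest NM value by the lowest AM value but sets no limit on the highest AM value.

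All 6 members passed the filter on low values (1 FPKM or more in at least 3 libraries) and entered a limma fit over 64974 IDs. All 6 were called higher in AM at an adjusted p under 0.05 (limma, Benjamini-Hochberg over all tested IDs), where 11.2% of all tested IDs and 4.29% of the IDs with an NM floor of 50 FPKM were called higher. Nothing is read from this count, since the rule chose the members on the same contrast. Their median log2 fold change was 1.73, beside -0.14 over the 3354 IDs with an NM floor of 50 FPKM and 0.05 over all tested IDs.

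A separated rise of this size was rare at this level. After identical IDs were counted once, 3354 IDs were abundant in this sense, and the 6 members were 0.179% of them. A further 24 IDs had a lowest AM value 1.5 to 2 times the highest NM value, 440 were separated upwards by less, and 0 reached 8 times. All AM values lay above all NM values in 470 of the abundant IDs (14%) and below all NM values in 1189 of them. Of 47 abundant IDs whose AM mean was at least 2 times the NM mean, 41 were not members, and in 5 of these 41 the groups overlapped. With the groups exchanged, the same rule asks for a lowest AM value of at least 50 FPKM and a lowest NM value 2 to 8 times the highest AM value. It found 33 of 3038 IDs (1.09%). The size of this contrast between the 2 counts depended on NM replicate 3. Without that library the rule found 35 IDs higher in AM and 43 with the groups exchanged. Over all 6 libraries and with no floor on AM, 352 of the 3354 abundant IDs (10.5%) were lower in AM by 2 times or more. That count, and the counts of IDs with all AM values above or below all NM values, were not repeated without NM replicate 3.

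**Figure D2:**
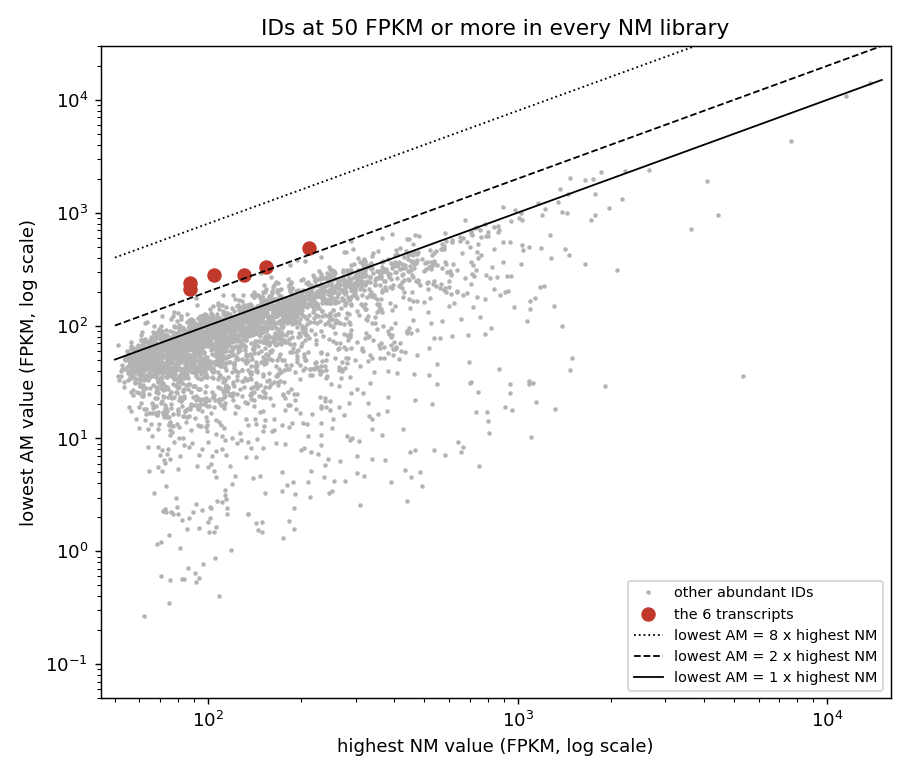
The lowest AM value against the highest NM value, both in FPKM on log axes, for the IDs with a lowest NM value of at least 50 FPKM; 13 IDs whose lowest AM value was listed at 0 are not drawn. The 6 transcripts (red) lie just above the dashed line at 2 times, far from the dotted line at 8 times.

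The share of IDs raised by 2 to 8 times was smaller at higher starting levels. It was 1.59% of the 16427 IDs whose lowest NM value was 5 to 20 FPKM and 0.553% of the 4883 IDs at 20 to 50 FPKM. It was 0.221% (4 of 1813) at 50 to 100 FPKM, 0.206% (2 of 970) at 100 to 200 FPKM and 0 of 571 at 200 FPKM or more. Traes_4AS_5574058B4 and Traes_1DS_6F82D5B34 were the pair above 100 FPKM in every NM library. With the groups exchanged and classes formed on the lowest AM value, the shares were 1.54%, 1.91%, 1.61% (28 of 1736), 0.479% (4 of 835) and 0.214% (1 of 467). The shares for IDs higher in AM depended on NM replicate 3. Without it the rule found 35 of 3558 IDs with an NM floor of 50 FPKM, against 6 of 3354 with all 6 libraries. With a floor of 20 FPKM it found 130 of 8759 IDs without that library, against 33 of 8237. These shares describe the table, and the classes were not tested against each other.

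**Figure D3:**
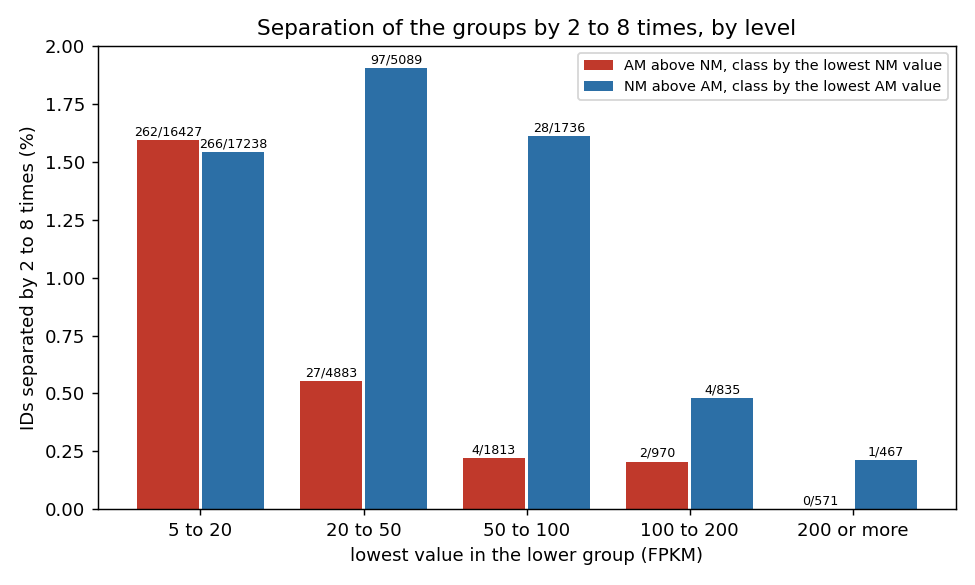
Share of IDs (%) separated by 2 to 8 times, by the lowest FPKM value in the lower group. Red bars are IDs higher in AM, classed by NM, and blue bars are IDs higher in NM, classed by AM; the fractions above the bars are counts, which for red bars reach 0 of 571 IDs at 200 FPKM or more.

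The IDs nearest to the floor and to the lower bound were as follows. The member nearest to the bound of 2 times was Traes_7BL_AB7E64312, at 2.14 times. The nearest ID outside it was Traes_2AS_48F5EBFF7 at 1.97 times, with 292.17, 305.96 and 310.21 FPKM in AM, against 78.12, 81.21 and 148.13 FPKM in NM, where NM replicate 3 was well above the other NM libraries. Below the floor, the nearest ID that met the ratio was TRAES3BF084900010CFD_g, with 93.08, 126.06 and 115.32 FPKM in AM, against 43.13, 43.69 and 45.35 FPKM in NM. The upper bound of 8 times had no ID near it on either side.

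The same rule was then applied to 5 libraries at a time, and the further IDs it found were read in the library left out. With AM replicate 1, 2 or 3 left out the rule found 9, 9 and 7 IDs, and with NM replicate 1 or 2 left out it found 9 and 7. The 6 members were among them each time, which their definition all but fixes, so their presence supports nothing. The lowest ratio in the library left out was 1.58, 0.737 and 1.83 times for AM replicates 1, 2 and 3, and 1.48 and 1.96 times for NM replicates 1 and 2. Each of these 5 libraries therefore kept out only 1 to 3 IDs, and AM replicate 2 held the single ID among them that did not lie above NM.

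NM replicate 3 was the library that limited the members most. Without it the rule found 35 IDs, the 6 members and 29 others, against 7 to 9 IDs without any other library. The median ratio of the lowest AM value to NM replicate 3 was 1.51 over the 35 IDs. The 29 others missed the factor of 2 only once NM replicate 3 was counted, so it was their highest NM library by construction. It stood at 1.22 to 2.26 times the mean of NM replicates 1 and 2 in these IDs (median 1.77). In all 29 the lowest AM value still lay above NM replicate 3, by 1.09 to 1.97 times, where values under 2 are fixed by the rule. All AM values lay above all NM values in 14% of the 3354 abundant IDs. The 29 were chosen for high AM values over NM replicates 1 and 2, so the counts are not compared. On the log2 scale NM replicate 3 stood at a median of 51.6% of the way from the other NM libraries to the AM libraries in the 35 IDs. NM replicates 1 and 2, left out in the same way, stood at 6.5% and 4.89% in the 9 and 7 IDs found without them. With an NM floor of 20 FPKM the rule found 130, 49 and 41 IDs without NM replicates 3, 1 and 2, and these positions were 42.2%, -8.29% and -1.51%. These sets are not alike. At the floor of 50 FPKM the 6 members were most of the 9 and of the 7 IDs but few of the 35. The rule itself keeps every NM value of a member far below AM. The positions of the NM replicates are therefore not a like comparison. Over the 3354 abundant IDs NM replicate 3 lay a median of 0.05 below the other NM libraries on the log2(FPKM + 1) scale. Its median absolute deviation from them was 0.178, against 0.150 and 0.147 for NM replicates 1 and 2. With the groups exchanged, the rule found 43 IDs without NM replicate 3 and 34 to 59 without any other library. Why NM replicate 3 stood nearer to AM in these IDs was not tested.

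**Figure D4:**
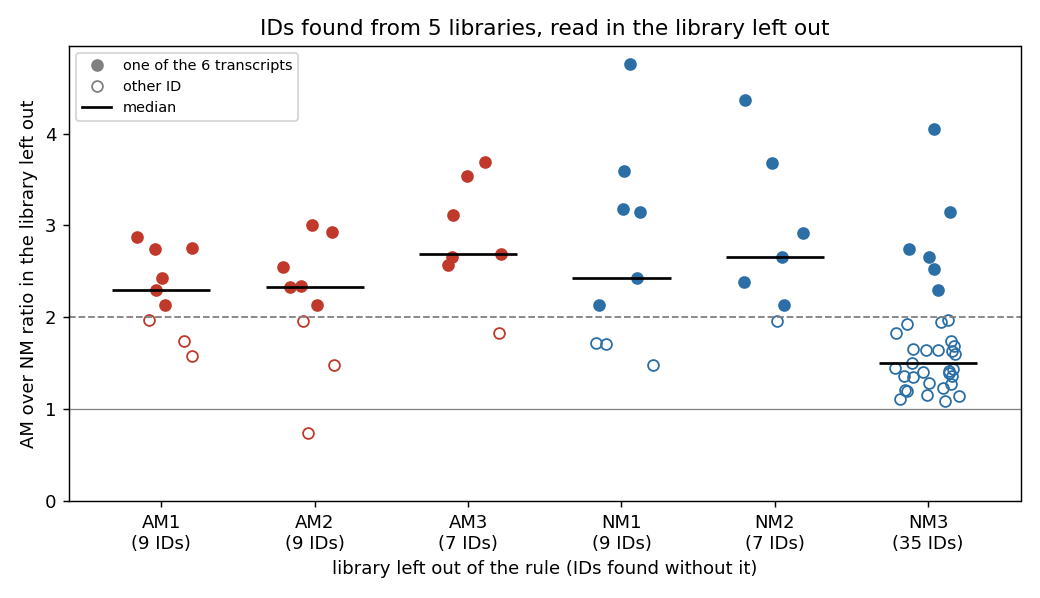
Each point is an ID found by the rule from 5 libraries, plotted by its AM over NM ratio in the library left out (that AM library over the highest NM value, or the lowest AM value over that NM library). Filled points are the 6 transcripts, open points other IDs, and black bars medians; the dashed line marks 2 times. Without NM replicate 3 there are 35 IDs, the 6 transcripts included, with a median of 1.51. For every library the open points lie under the dashed line, which the rule all but fixes.

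By subgenome, 1 member was on A, 4 on B and 1 on D. The abundant IDs divided into 30.0%, 37.8% and 32.3%. Chromosome 3B held 2 of the 6 members and 9.57% of the abundant IDs. With an NM floor of 20 FPKM the rule found 33 IDs, 9 on A, 15 on B and 9 on D, of which 5 were on 3B. With so few members these counts are a description only. Abundant IDs lower in AM by 2 times or more were 33 of 321 on chromosome 3B, 22 of 205 on arm 5BL, 9 of 73 on 4AS, 5 of 56 on 1DS and 3 of 53 on 7BL, beside 10.5% of all abundant IDs.

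The scaffold and gene numbers in the TRAES3BF IDs allowed the neighbours of the 3B members to be read, which the rule had not used. The scaffold of TRAES3BF007400110CFD_g held 9 other IDs and that of TRAES3BF049300050CFD_g held 4. Of these 13 IDs, 7 passed the filter on low values, 0 were called higher and 1 was called lower, where 13.7% of the 2774 tested TRAES3BF IDs were called higher and 8% lower (limma, adjusted p under 0.05). With only 7 IDs tested, these counts cannot be told apart from those shares. TRAES3BF007400110CFD_g had the highest gene number on its scaffold, so its neighbours were read on 1 side only. The ID numbered just before TRAES3BF007400110CFD_g was listed at 0 in all 6 libraries. The one before that, TRAES3BF007400090CFD_g, was itself well expressed, with 60.95, 49.02 and 66.86 FPKM in AM, against 45.09, 58.95 and 42.99 FPKM in NM. Its groups overlapped, and its log2 fold change of 0.26 (standard error 0.18) did not pass (limma adjusted p = 0.371).

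TRAES3BF049300050CFD_g stood among weak neighbours. The ID just before it, TRAES3BF049300040CFD_g, was listed at 0, 4.6 and 0 FPKM in AM, against 0.86, 0.98 and 1.82 FPKM in NM, too low to be tested. The ID just after it, TRAES3BF049300060CFD_g, stood at 2.79, 4.04 and 2.77 FPKM in AM, against 5.8, 6.06 and 5.24 FPKM in NM. That is the one neighbour called lower, with a log2 fold change of -0.69 (standard error 0.16; limma adjusted p = 0.0302), opposite in sign to the member. The call was lost when any library other than AM replicate 2 was left out, with adjusted p-values of 0.0589 to 0.106.

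**Figure D5:**
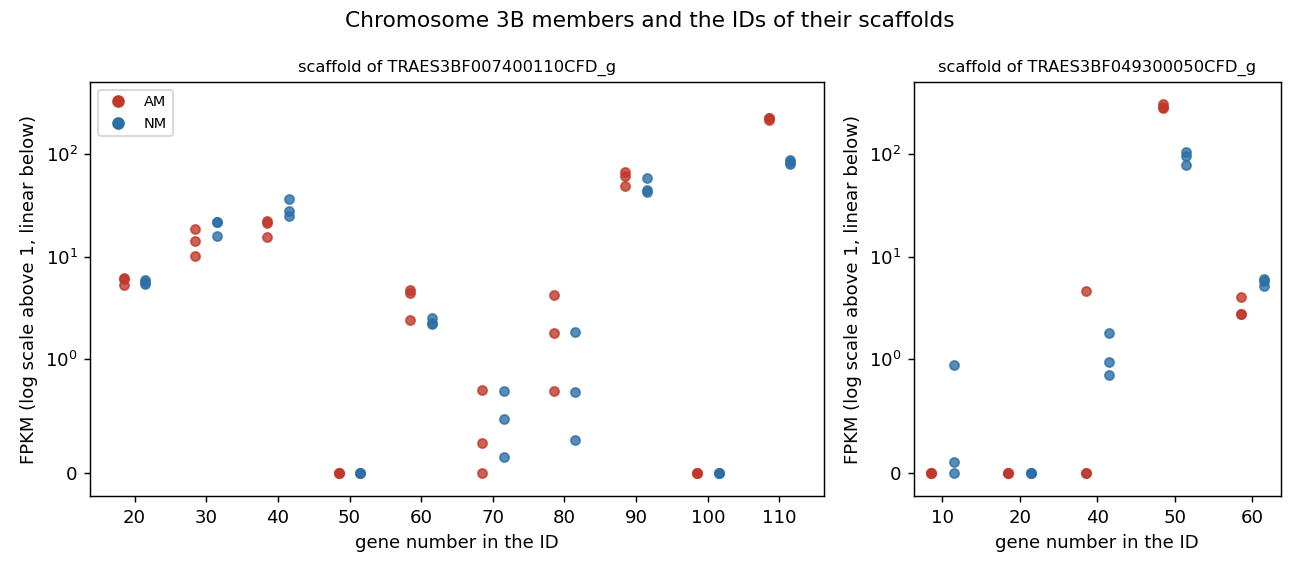
FPKM of every ID on the scaffolds of the 3B members, in the order of the gene number in the ID (AM red, NM blue, 1 point per library; log axis above 1 FPKM, linear below). The members, numbered 110 and 50, stand at 212.83 to 225.13 and 278.68 to 306.96 FPKM in AM, well above their NM points, while the points of the 2 groups lie close together at most other IDs.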

How the data were processed

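The authors deposited 1 table of FPKM values with 2 decimals, 1 column for each of the 6 libraries, per the file headers. The submitters' processing notes name TopHat2, Cufflinks, RSEM and edgeR but give no roles. Genome build, annotation and strand setting: not given in the sources used here. Without counts the depth is unknown, so no counting interval is attached to a value, and every FPKM is relative to its library total.

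The members and lists were chosen with earlier results of these data known. The rule was applied in Python 3.11.15 with pandas 2.3.3. For the fold changes and calls, log2(FPKM + 1) was fitted by group in limma 3.58.1 under R 4.3.3, allowing the variance to follow the mean, with no block. It covered 64974 IDs that reached 1 FPKM in 3 libraries or more, and p-values were adjusted over all of them (Benjamini-Hochberg). The step was tested on simulated data. Named IDs are all 6 members, the IDs nearest to each threshold and the numbered neighbours on 3B. Planned lists by gene description and cell type could not be looked up, because no ID of the table matched the reference genes. Alternatives were other floors, bounds, pseudocounts, filters and scaling, a replicate block and leaving out each library.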

Additional observations from a re-analysis of the deposited data

How the results depend on the processing

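The number of members is set by the rule alone, without the limma fit, and it moved with the settings of the rule. With an NM floor of 20 or 100 FPKM the rule found 33 or 2 IDs in place of 6, and with a lower bound of 3 times it found 0. Leaving out 1 library gave 7 to 35 IDs, and the 35 came without NM replicate 3. No upper bound, median-ratio rescaling and counting identical IDs gave the same 6. All 6 members stayed called higher in limma in the 11 settings tried. These include the replicate block (6 called, largest limma adjusted p = 0.0200) and leaving out any 1 library (largest limma adjusted p = 0.0310). Over all tested IDs, 6323 of 64974 were called higher with the block and 2524 of 61298 without AM replicate 3. Nothing is read from the members' calls, since the rule chose the members on the same contrast. Same-numbered libraries deviated together with correlations of 0.124, 0.0708 and 0.0437, of which 1 passed 0.1, so the numbers are not taken as a pairing. Each library correlated best with its own number, but NM replicate 3 did so narrowly (0.0437, against 0.0354 with AM replicate 2). The design states no pairing, and whether the libraries are paired was not tested. The median log2 fold change of the members ran from 1.62 to 1.77, and the ratio of their FPKM share from 3.06 to 3.49. Leaving out libraries for the exchanged rule, the floor of 20 FPKM in the libraries left out, and the settings for the 3B neighbour were chosen after seeing the data. FPKM without counts limits what can be said of neighbours near 1 FPKM.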

Other observations

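For each member, the ID whose levels over the 6 libraries kept the most constant ratio to it was looked up among 23812 IDs whose lowest value was at least 5 FPKM. The measure is the SD of the log2 ratio over the libraries, it was chosen after the values were seen, and it mostly reflects a like AM over NM ratio. For Traes_1DS_6F82D5B34 the nearest ID was Traes_1BS_91DEF138E, on the matching arm of the B subgenome, with 25.51, 17.58 and 27.1 FPKM in AM and 8.43, 7.38 and 5.27 FPKM in NM (SD of the log2 ratio 0.10). Both have AM replicate 2 and NM replicate 3 as the low libraries of their groups, which the search itself favours, so nothing is read from it. How many of the 23812 IDs lie on a matching arm was not counted. For the other 5 members the nearest IDs carried other arms (1BL, 4DL, 2AS and 1AL) or, for Traes_7BL_AB7E64312, no chromosome, with SDs of 0.06 to 0.15.

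Among 216 IDs without a chromosome in their name with a lowest NM value of at least 50 FPKM, 1 met the same thresholds. XLOC_036034 stood at 806.05, 825.03 and 808.7 FPKM in AM and 172.43, 236.43 and 238.41 FPKM in NM. It was more abundant in AM than any of the 6 members, and its lowest AM value was 3.38 times its highest NM value, above the members' range.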
